A study of Mus musculus with 9 samples.

Results

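The 9 genes described here, of 55416 Ensembl genes in the read count table, encode the Snail, Twist, Zeb and Prrx transcription factors and Tcf21. They were chosen by name, and all 9 passed edgeR's filter on low counts, with each library over its minimum, which kept 14879 genes for testing. Their identifiers are ENSMUSG00000042821 for Snai1, ENSMUSG00000022676 for Snai2, ENSMUSG00000035799 for Twist1, ENSMUSG00000007805 for Twist2, ENSMUSG00000024238 for Zeb1, ENSMUSG00000026872 for Zeb2, ENSMUSG00000026586 for Prrx1, ENSMUSG00000039476 for Prrx2 and ENSMUSG00000045680 for Tcf21. RNA-Seq measured them in AdvSca1-SM cells in culture. These are progenitor cells of the adventitia, the outer layer of the artery, that descend from smooth muscle. The cells were sorted for YFP and Sca1 out of aortas and carotid arteries that were pooled from SM22α-Cre-YFP mice. In these mice the SM22α promoter drives Cre, so YFP marks any cell with a history of SM22α expression, which includes a medial smooth muscle cell that carries Sca1. There were 3 groups of 3 libraries, described by the study as independent replicates, and all cells received 0.1% DMSO. Stem cells were kept in stem cell media, described for maintenance with 10% FBS, 1 ng/mL basic FGF and 5 ng/mL EGF. TGF-β cells were growth arrested for 24 h, moved to DMEM with 0.1% FBS and stimulated with 5 ng/mL TGF-β1 for 72 h. Both cells were handled in the same way and received 50 μM PFI-3, a compound directed at the bromodomain of the chromatin remodeler Brg1, together with TGF-β1. The labels give the growth arrest for each library, Stem included, whereas the study's methods name it for stimulated cells, so whether Stem cells had it is not clear. Medium, serum, basic FGF, EGF, TGF-β1 and possibly growth arrest therefore differ together between Stem and TGF-β and cannot be told apart, whereas PFI-3 is what separates TGF-β from Both.

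Snail factors (Snai1, and Snai2, which is also called Slug) and Zeb factors are zinc finger repressors that bind E-box sequences and silence junction genes of epithelial cells. Twist factors and Tcf21 are basic helix-loop-helix (bHLH) proteins that bind E-boxes as dimers with E proteins, and Prrx factors are paired-related homeodomain proteins of embryonic mesenchyme. In epithelial cells TGF-β is known to raise several of these factors during epithelial-to-mesenchymal transition. Cells that are already mesenchymal, such as fibroblasts, express many of them at rest, and Tcf21 is known from epicardial and fibroblast lineages.

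RefSeq promoter windows, taken as the 250 bases before the annotated start in build GRCm38.p6, were used for 7 of the 9 genes, with 10 windows in all. No window of Snai2 or Zeb1 was searched. Member windows on the chromosome of Zeb1 were left out, whereas the windows of all genes given for comparison were not limited in this way. The genes were Snai1, Twist1, Twist2, Zeb2 with 4 windows, Prrx1, Prrx2 and Tcf21. The windows were searched on both strands for the E-box CANNTG, the Snail and Zeb type E-box CAGGTG (which is itself a CANNTG), the Smad type sequence CAGACA, the TEAD type sequence CATTCC, the AP-1 type sequence TGANTCA and the homeodomain type sequence TAATTA. Windows of 4 genes are printed because they set the matches, or the lack of them, beside genes whose mRNA fell together in the comparisons that follow. Capitals mark a match to any of these sequences. The Snai1 window is chr2:167537945-167538194 on the plus strand, that of Twist1 chr12:33957421-33957670 on the plus strand, that of Prrx1 chr1:163313651-163313900 on the minus strand and that of Tcf21 chr10:22820144-22820393 on the minus strand.
Snai1: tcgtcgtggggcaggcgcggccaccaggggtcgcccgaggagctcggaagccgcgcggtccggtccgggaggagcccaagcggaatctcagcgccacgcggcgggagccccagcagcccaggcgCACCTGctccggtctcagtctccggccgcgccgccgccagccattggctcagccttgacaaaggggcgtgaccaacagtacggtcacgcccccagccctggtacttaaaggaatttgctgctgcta
Twist1: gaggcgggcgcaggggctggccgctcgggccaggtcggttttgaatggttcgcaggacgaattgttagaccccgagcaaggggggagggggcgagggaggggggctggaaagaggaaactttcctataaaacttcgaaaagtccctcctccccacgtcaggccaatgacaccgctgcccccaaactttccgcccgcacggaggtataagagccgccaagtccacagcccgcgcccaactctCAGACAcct
Prrx1: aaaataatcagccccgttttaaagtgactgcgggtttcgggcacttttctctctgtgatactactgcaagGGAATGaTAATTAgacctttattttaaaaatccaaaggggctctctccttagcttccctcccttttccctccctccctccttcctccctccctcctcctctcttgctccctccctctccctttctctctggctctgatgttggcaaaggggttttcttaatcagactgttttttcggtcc
Tcf21: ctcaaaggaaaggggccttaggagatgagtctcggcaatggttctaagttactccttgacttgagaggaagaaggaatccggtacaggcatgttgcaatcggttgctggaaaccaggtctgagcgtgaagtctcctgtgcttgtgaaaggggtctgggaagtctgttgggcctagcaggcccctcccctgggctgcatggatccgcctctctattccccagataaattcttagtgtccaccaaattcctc
The Snai1 window held 1 E-box, of the CAGGTG type and read here from the opposite strand, and it was the only window of the 10 with a CANNTG. Among all 32851 windows of 27025 genes, 66.2% held a CANNTG and 17.2% a CAGGTG. Twist1 held 1 CAGACA, a sequence found in 17.1% of all windows. Prrx1 held 1 CATTCC, read from the opposite strand, and 1 TAATTA, which were in 12.6% and 4.84% of all windows. A Zeb2 window that is not printed held 2 TGANTCA, present in 6.75% of all windows, and 1 CATTCC. The other 6 windows, those of Tcf21, Twist2 and Prrx2 and the remaining 3 of Zeb2, held none of these sequences. GC content was 70% for Snai1, 62.4% for Twist1, 47.6% for Prrx1 and 52.4% for Tcf21, against a median of 52.4% over all windows. The matches describe the letters of these windows and no more.

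The libraries held 35686291 to 37262375 counts in Stem, against 39453841 to 43194424 in TGF-β and 42683050 to 47741128 in Both, so depth differed between the groups. Levels are given as normalized counts, which are counts scaled to the mean library after TMM normalization, and 3 counts correspond to between 2.63 and 3.26 of them. The cell label was checked against 8 markers of AdvSca1-SM cells and adventitial fibroblasts, all of which passed the filter. Ly6a, which encodes Sca1, stood at 7635 ± 971 (SD, n = 3) normalized counts in Stem, with 941.2 ± 133 (SD, n = 3) in TGF-β and 733.7 ± 83.4 (SD, n = 3) in Both. Of the 8 markers, 7 were lower in TGF-β than in Stem past the fold threshold defined below, and the collagen gene Col1a1 was higher. The extraction label names hepatic tissue, whereas the 7 hepatocyte markers matched summed to between 3.14 and 14.0 normalized counts in each library. Markers of other cell types moved with the groups, and their part in the changes of the 9 factors was not tested. The sum of 5 pericyte markers went from 2716 to 3315 in Stem to 23604 to 24955 in TGF-β and 14602 to 16122 in Both, with Rgs5 and Cspg4 higher and Kcnj8 and Abcc9 lower in TGF-β than in Stem. The sum of 6 smooth muscle markers went from 10606 to 13325 in Stem to 22688 to 25148 in TGF-β and 17395 to 18334 in Both, with Acta2 higher and Myh11 lower. The sum of 8 leukocyte markers was 139.6 to 151.8 in Stem, against 178.5 to 219.1 in TGF-β and 290.8 to 307 in Both, with Adgre1, Itgam and Cd3e at 0 in each library. Of the tested leukocyte markers, Csf1r and Cd68 were higher in TGF-β than in Stem past the fold threshold, Csf1r with means of 28.5, 76.1 and 138.4 in Stem, TGF-β and Both, and Csf1r and Lyz2 were higher in Both than in TGF-β, by 0.86 and 0.41 on the log2 scale (edgeR adjusted p = 0.0149 and 0.0363). The 4 Schwann and nerve markers summed to 42.9 to 51.1 in Stem and 377.3 to 438.1 in TGF-β, with Sox10 at 0 in each library. The sum of 7 endothelial markers was 115.2 to 252.3 in Stem, against 60.4 to 93.7 in TGF-β and 52.7 to 70.1 in Both, with Emcn and Tek lower and Kdr higher in TGF-β than in Stem past the fold threshold. Some markers passed the filter on low counts only through the groups where they were high, so the filter set their direction. Cd68 and Kdr had 0 Stem libraries over it, Kcnj8 had 0 TGF-β libraries over it and Emcn had 1. The 7 epithelial markers summed to 3.14 to 11.9 in Stem, with 28.4 to 37.8 in TGF-β and 15.8 to 27.0 in Both, and adipocyte markers to at most 4.35 in each library. In bulk samples, fewer cells that express a gene and less RNA per cell cannot be told apart.

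All 9 factors were lower in TGF-β than in Stem. Snai2 fell by 77.6%, Tcf21 by 56.9% and Zeb2 by 48.3%, and the other 6 fell by between 18.3% for Snai1 and 39.0% for Zeb1. With PFI-3 none of the 9 passed the test against TGF-β, where 3.54% of all genes tested passed it as higher and 5.38% as lower in Both. A count of 0 of 9 is not far from these shares. Tests used edgeR's quasi-likelihood model fitted to the 9 libraries together, with Benjamini-Hochberg adjustment over all 14879 genes. A change was called at an adjusted p below 0.05, and stood past the fold threshold when the log2 fold change was also below -1 or above 1. Between Stem and TGF-β, 9 of 9 factors were called lower and 0 higher, where 37.7% of all genes tested were called lower and 37.3% higher. Past the fold threshold were 2 of 9, Snai2 and Tcf21, a share near the 25.1% of all genes tested. The median log2 fold change was -0.64 over the 9 factors and -0.0027 over all genes tested. When libraries were scaled by their totals and not by TMM, the median of all genes stood at -0.12, which also put Zeb2 past the fold threshold, at -1.07. The values of Stem and TGF-β did not overlap for 7 of the factors, where 38.7% of all genes tested were lower without overlap and 38.1% higher, and they overlapped for Snai1 and Prrx2.

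**Figure D1:**
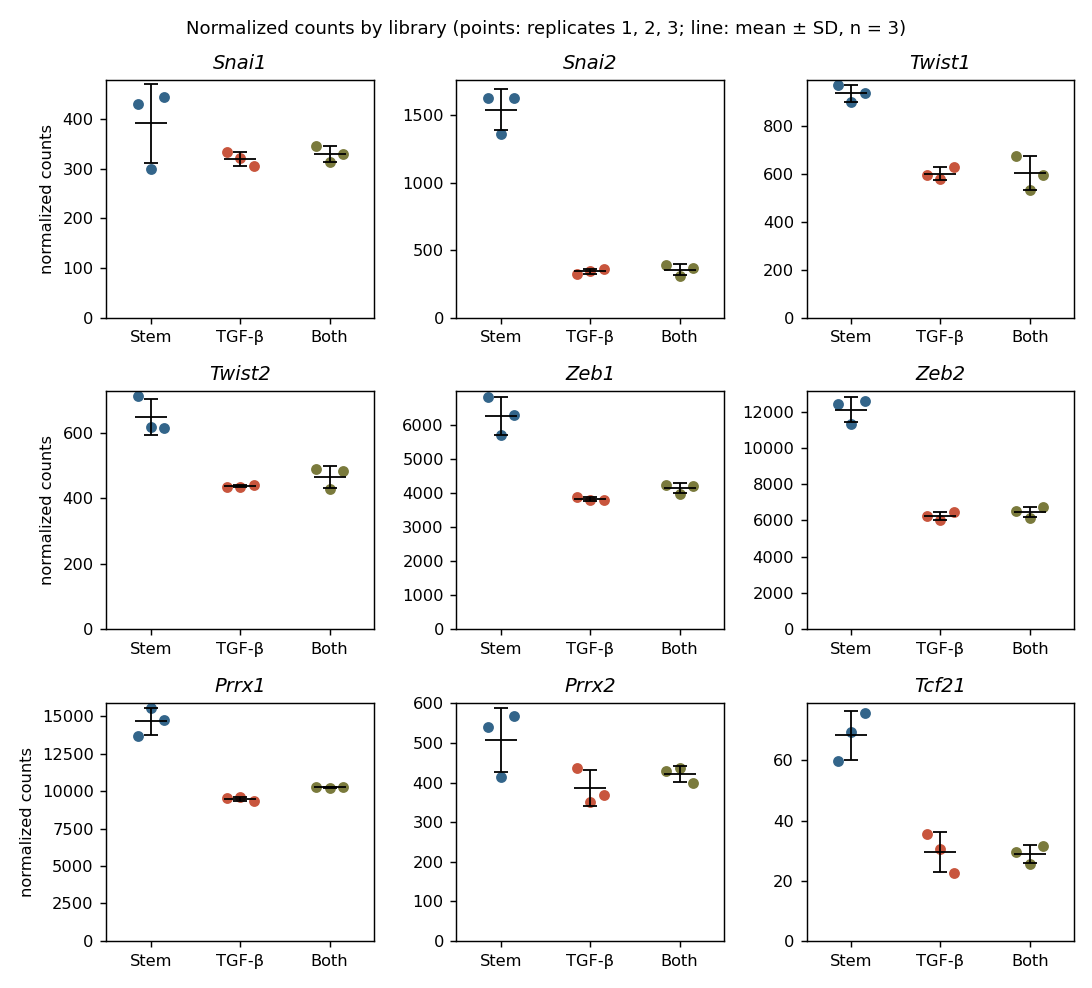
Normalized counts (vertical axis, from 0 in each panel) of the 9 factors by group, with a point for each of replicates 1 to 3 from left to right and a line with bars for the mean ± SD (n = 3). Stem lies above the other groups for 7 factors, and for Snai1 and Prrx2 the lowest Stem library falls among the TGF-β and Both libraries or below them.

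Of the 9 factors, Snai2 fell most. Its normalized counts were 1632, 1365 and 1628 in the Stem libraries, with 325.9, 349.9 and 361.2 in TGF-β and 389.9, 310.9 and 372.1 in Both. The lowest Stem library stood well above each of the others, and TGF-β and Both overlapped. The log2 fold change of TGF-β against Stem was -2.16 (SE 0.093, edgeR adjusted p = 7.0e-10). Against Stem, Both was lower by a log2 fold change of -2.11 (SE 0.092, edgeR adjusted p = 8.6e-10).

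Snai1, the relative of Snai2 that is best known as an early TGF-β target in epithelia, changed least of the 9. It had 429.2, 299.9 and 443.6 normalized counts in Stem, with 333.4, 320.5 and 304.6 in TGF-β and 345.7, 313.9 and 329.1 in Both. Stem replicate 2 was the lowest of all libraries and the other Stem libraries were the highest, so the groups overlapped. The log2 fold change of TGF-β against Stem was -0.29 (SE 0.124, edgeR adjusted p = 0.0496). This call was lost in 10 of 17 alternative fits. The adjusted p was 0.0647 with DESeq2, 0.0784 in an edgeR fit of the 6 libraries compared, and between 0.0637 and 0.212 when any library other than Stem replicate 2 was left out. Without Stem replicate 2 the log2 fold change was -0.45 (edgeR adjusted p = 0.000162). Between Stem and Both the log2 fold change of -0.25 did not pass (SE 0.123, edgeR adjusted p = 0.0894), and without Stem replicate 2 it was -0.40 (edgeR adjusted p = 0.000418).

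Both Twist factors, bHLH proteins of mesoderm and neural crest mesenchyme, fell. Twist1 had 971.5, 900.8 and 936.9 normalized counts in Stem, with 597.8, 578.1 and 630.7 in TGF-β and 677.1, 535 and 596 in Both. All Stem libraries were higher than the rest, and TGF-β and Both overlapped. Twist1 changed between Stem and TGF-β by a log2 fold change of -0.64 (SE 0.078, edgeR adjusted p = 1.12e-05). Twist2 had 711.9, 617.2 and 615.6 in Stem, with 434.9, 435.1 and 440.3 in TGF-β and 488, 427.4 and 481.9 in Both. The TGF-β libraries of Twist2 lay close together, with an SD of 3.09, and below each Stem library. Its log2 fold change was -0.57 (SE 0.075, edgeR adjusted p = 2.2e-05).

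The Zeb factors were among the abundant members and both fell. Zeb1 had 6819, 5701 and 6298 normalized counts in Stem, with 3892, 3786 and 3807 in TGF-β and 4228, 3977 and 4219 in Both. Here the groups were ordered without overlap, Stem highest, then Both, then TGF-β. Against Stem, TGF-β gave a log2 fold change of -0.71 (SE 0.057, edgeR adjusted p = 2.2e-07). Zeb2, the other E-box repressor of this pair, had 12396, 11299 and 12569 in Stem, with 6247, 6042 and 6465 in TGF-β and 6523, 6139 and 6729 in Both. TGF-β and Both overlapped, and each Stem library stood above them. Its log2 fold change was -0.95 (SE 0.051, edgeR adjusted p = 5.2e-09), just inside the fold threshold of -1.

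Both Prrx factors were called lower. Prrx1, the homeodomain factor used to mark limb and fibroblast mesenchyme, had 13701, 15532 and 14755 normalized counts in Stem, with 9549, 9590 and 9324 in TGF-β and 10303, 10198 and 10264 in Both. As for Zeb1, the groups did not overlap, and Both lay between TGF-β and Stem. Between Stem and TGF-β Prrx1 changed by a log2 fold change of -0.63 (SE 0.045, edgeR adjusted p = 7.7e-08). Prrx2 had 540.2, 414 and 566.9 in Stem, with 437, 350.9 and 369.1 in TGF-β and 429.5, 436.3 and 399.4 in Both. Stem replicate 2 was lower than TGF-β replicate 1, so Stem and TGF-β overlapped. Its log2 fold change was -0.40 (SE 0.116, edgeR adjusted p = 0.00798).

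Tcf21, the bHLH factor of fibroblast lineages, was the scarcest member, with 59.7, 69.5 and 75.7 normalized counts in Stem, with 35.6, 30.4 and 22.5 in TGF-β and 29.7, 25.7 and 31.6 in Both. All Stem libraries were above the rest, and the TGF-β libraries covered the range of Both. The log2 fold change of TGF-β against Stem was -1.21 (SE 0.194, edgeR adjusted p = 0.000112), with a 95% confidence interval from -1.64 to -0.79 that crosses the fold threshold.

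**Figure D2:**
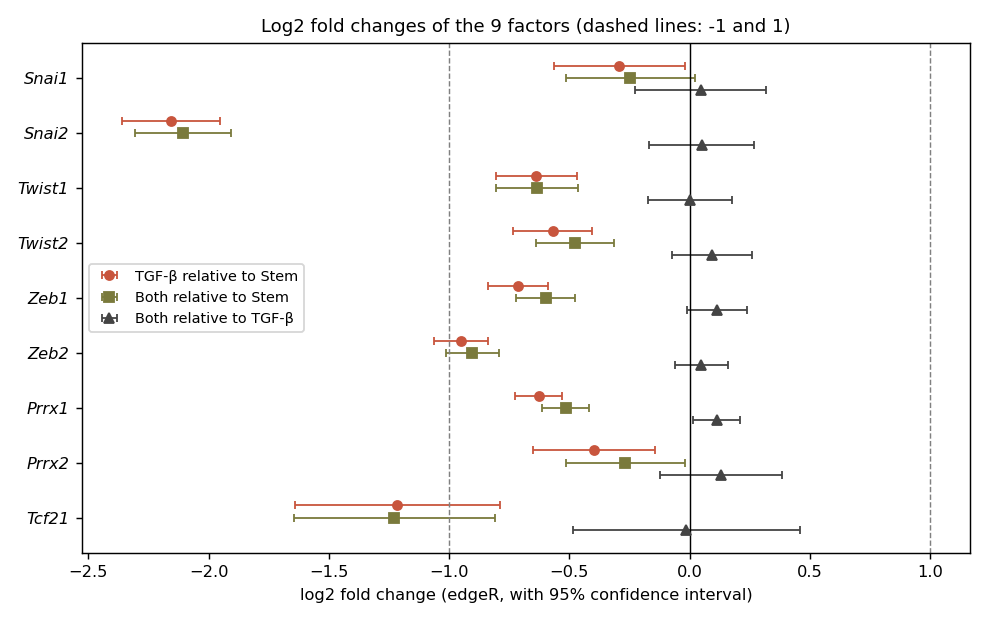
Log2 fold change (horizontal axis) of each of the 9 factors from edgeR, with bars for the 95% confidence interval, for TGF-β against Stem (circles), Both against Stem (squares) and Both against TGF-β (triangles). Circles and squares lie left of 0 for each factor, with Snai2 at -2.16 and -2.11, and the triangles lie between -0.01 and 0.13.

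The comparison of TGF-β with Both addresses whether PFI-3 moves the factors in stimulated cells. Of the 9, 0 were called higher and 0 lower by edgeR, where 3.54% of all genes tested were called higher and 5.38% lower in Both. A count of 0 of 9 is not far from these shares. Past the fold threshold were 0, against 0.632% of all genes tested. DESeq2 also called 0 of the 9, and 1 of them, Prrx1, had an unadjusted edgeR p below 0.05. For Prrx1 the log2 fold change of Both against TGF-β was 0.11, with a 95% confidence interval from 0.015 to 0.21 (edgeR adjusted p = 0.149). For Zeb1 it was 0.11, from -0.011 to 0.24 (edgeR adjusted p = 0.253). An edgeR fit of the 6 TGF-β and Both libraries alone called both of these higher, with adjusted p = 0.0211 for Prrx1 and 0.0354 for Zeb1, and without Stem replicate 2 Prrx1 was called (edgeR adjusted p = 0.0409). These were also the factors whose TGF-β and Both libraries did not overlap, 2 of 9, where 15.4% of all genes tested were higher in Both without overlap and 17.4% lower. For the factors that stood past the fold threshold against Stem, the interval was -0.17 to 0.27 for Snai2 and -0.49 to 0.46 for Tcf21. It was -0.23 to 0.32 for Snai1, -0.17 to 0.18 for Twist1, -0.073 to 0.26 for Twist2, -0.062 to 0.16 for Zeb2 and -0.12 to 0.38 for Prrx2. A change of 2-fold in either direction lies outside the interval of each of the 9.

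Against Stem, Both gave values near those of TGF-β. The comparisons share the Stem libraries, so they are set side by side only. Called lower in Both than in Stem were 7 of the 9 and higher 0, where 36.6% of all genes tested were called lower and 36.6% higher. Stem and Both did not overlap for 7 of the 9, where 37.5% of all genes tested were lower without overlap and 37.2% higher. Snai2 and Tcf21 were again past the fold threshold, 2 of 9 against 22.8% of all genes tested. The log2 fold change against Stem was -0.63 for Twist1, -0.48 for Twist2, -0.60 for Zeb1, -0.90 for Zeb2, -0.52 for Prrx1 and -1.23 for Tcf21 in Both, beside -0.64, -0.57, -0.71, -0.95, -0.63 and -1.21 in TGF-β. Snai1 and Prrx2 were not called, and for Prrx2 the log2 fold change was -0.27 (SE 0.114, edgeR adjusted p = 0.0509). Prrx2 passed in 7 of 17 alternative fits and Snai1 in 4. Among them were the fit with the replicate number as a block and the fit without Stem replicate 2, where Prrx2 stood at -0.38 (edgeR adjusted p = 0.00154). Stem replicate 2 was the lowest Stem library for 6 of the factors, at 68.7% of the mean of the other Stem libraries for Snai1, 74.8% for Prrx2 and 83.7% for Snai2. For Prrx1 it was the highest, at 109%.

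To set the factors against each other, counts were divided by the merged length of all annotated exons of each gene (GENCODE M21) and by the TMM-scaled library, which gives RPKM values. The merged length can exceed that of the mRNA present, and the order of the genes depends on it. It was 19942 bases for Zeb2 and 2021 for Snai2, whose Stem means were 12088 and 1542 normalized counts. On this scale of levels Prrx1 led in all groups, with 32.2 ± 2.02 (SD, n = 3) in Stem, against 20.8 ± 0.314 (SD, n = 3) in TGF-β and 22.5 ± 0.116 (SD, n = 3) in Both. In Stem it was followed by Snai2 at 18.5 ± 1.84 (SD, n = 3), and then by Zeb1 at 14.8, Zeb2 at 14.7 and Twist1 at 14.0, whose ranges overlapped from each to the next. Snai2 moved from second to seventh place, at 4.15 ± 0.217 (SD, n = 3) in TGF-β and 4.30 ± 0.498 (SD, n = 3) in Both. In TGF-β, Zeb1 at 9.05 and Twist1 at 8.98 overlapped and stood above Zeb2 at 7.61. Snai1 at 4.79 overlapped with Prrx2 at 4.78. The lowest TGF-β library of Prrx2 and the highest of Snai2 both rounded to 4.34. Twist2 came eighth in all groups, with 4.96, 3.34 and 3.56, and Tcf21 last, with 0.706, 0.305 and 0.300 in Stem, TGF-β and Both.

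**Figure D3:**
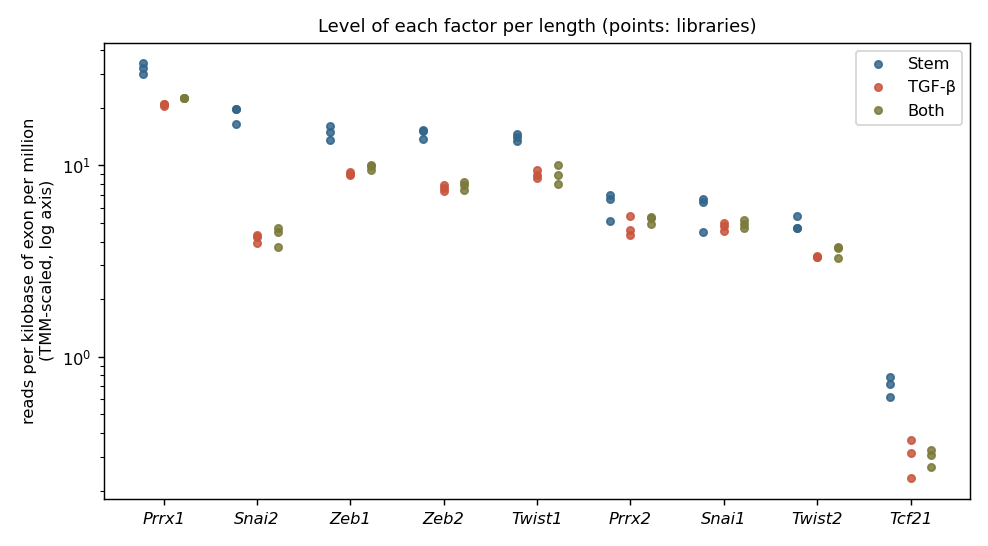
Level of each factor in RPKM (vertical axis, logarithmic) with a point for each library, colored by group and ordered by the Stem mean. Snai2 drops from 18.5 in Stem to 4.15 in TGF-β, next to the levels of Snai1 and Prrx2, while Prrx1 stays highest and Tcf21 lowest.

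Within a library the ratio of related genes needs no scaling. The log2 ratio of Snai1 over Snai2 was -1.93, -2.19 and -1.88 in Stem, against 0.033, -0.13 and -0.25 in TGF-β and -0.17, 0.014 and -0.18 in Both. Snai2 thus outnumbered Snai1 in counts in all Stem libraries, with a mean ratio of 0.251, and the counts of both were near equal with TGF-β1, with a mean ratio of 0.925 in TGF-β and in Both. For Zeb1 over Zeb2 the log2 ratio was -0.95 ± 0.075 (SD, n = 3) in Stem, against -0.71 ± 0.050 (SD, n = 3) in TGF-β and -0.64 ± 0.027 (SD, n = 3) in Both, and the groups did not overlap, although the nearest TGF-β and Both libraries both rounded to -0.67. Twist1 over Twist2 moved by -0.071 between Stem and TGF-β, and Prrx1 over Prrx2 by -0.24, or -0.056 without Stem replicate 2, and the groups overlapped for both pairs. With 3 libraries against 3 an exact permutation test, 2-sided, cannot give a p below 0.1, and this value was reached for Snai1 over Snai2 and for Zeb1 over Zeb2 between Stem and TGF-β (adjusted p = 0.24 over the 12 tests). The exact permutation p for TGF-β against Both was 1.0 for Snai1 over Snai2 and 0.1 for Zeb1 over Zeb2.

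**Figure D4:**
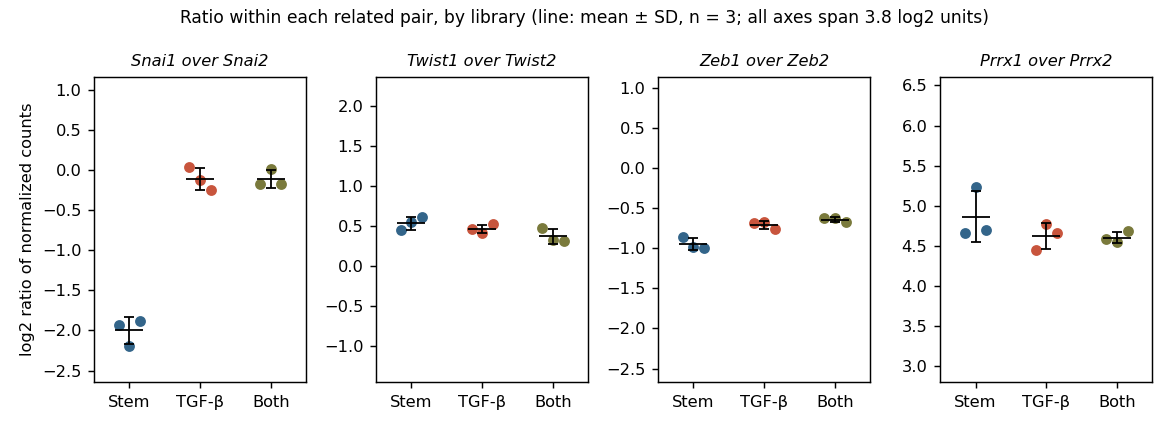
Log2 ratio of normalized counts within each related pair (vertical axis, the same span of log2 units in each panel), with a point for each library and a line with bars for the mean ± SD (n = 3). Snai1 over Snai2 moves from -2.0 in Stem to -0.11 in TGF-β and Both, and the other pairs move by at most 0.31.

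Twist and Tcf21 proteins act as dimers with the E proteins Tcf3, Tcf4 and Tcf12, and the Id proteins bind E proteins and keep them from DNA. Of these 7 genes, 6 were lower and 0 higher in TGF-β than in Stem, beside 37.7% lower and 37.3% higher over all genes tested, with a median log2 fold change of -1.39 (-0.0027 over all genes tested). Id2 had 966.3, 936.6 and 1037 normalized counts in the Stem libraries and 116.5, 80.1 and 106.4 in TGF-β, a log2 fold change of -3.28 (SE 0.11, edgeR adjusted p = 7.65e-11). Id4 (-3.10), Id1 (-2.21) and the E protein gene Tcf4 (-1.39) were also past the fold threshold, and the libraries of Stem and TGF-β did not overlap for any of them. Tcf12 did not pass, with a log2 fold change of -0.04 (edgeR adjusted p = 0.351). With PFI-3, 2 of the 7 were lower than in TGF-β, where 5.38% of all genes tested were, Id1 by -0.44 (SE 0.119, edgeR adjusted p = 0.0408) and Id3 by -0.25 (SE 0.040, edgeR adjusted p = 0.00226). Id1 stood at 274.1, 212 and 240.2 in TGF-β and at 179.2, 156.9 and 198.4 in Both, without overlap.

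Of 11 corepressors that Snail or Zeb proteins recruit, 2 were higher and 5 lower in TGF-β than in Stem, beside the same 37.3% and 37.7% of all genes tested, and their median log2 fold change was -0.08. Sin3a, the scaffold of a histone deacetylase complex, was the 1 gene past the fold threshold, with 3248, 2979 and 3084 normalized counts in Stem, with 1547, 1549 and 1524 in TGF-β and 1700, 1693 and 1719 in Both. Its log2 fold change was -1.01 (SE 0.041, edgeR adjusted p = 3.9e-10), and it was higher in Both than in TGF-β by 0.15 (SE 0.041, edgeR adjusted p = 0.0484), where DESeq2 called 0 of the 11. Of 11 regulators of Snail protein stability, 8 were lower and 2 higher, against 37.7% and 37.3% of all genes tested, and the median was -0.35. Usp27x, a deubiquitinase that acts on Snai1, went from 426.1, 484.6 and 517.1 in Stem to 208.3, 210.9 and 210.9 in TGF-β (log2 fold change -1.18, SE 0.091, edgeR adjusted p = 1.7e-07). In Both against TGF-β, Lats2, a kinase that phosphorylates Snai1, was the 1 gene called, with a log2 fold change of 0.20 (SE 0.051, edgeR adjusted p = 0.0289). It was named after its value was seen. Each of these lists thus had 1 of 11 called in Both, where 3.54% of all genes tested were called higher and 5.38% lower.

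Genes that Snail and Zeb factors repress in epithelia were for the most part at or near 0. Of 23 such genes, 8 passed the filter on low counts, and Cdh1, the gene of E-cadherin, had 0 in all Stem libraries and 3.24, 2.03 and 1.95 normalized counts in TGF-β. Of the 8, 5 were higher and 2 lower in TGF-β than in Stem, beside 37.3% and 37.7% of all genes tested. Since the rest were filtered out for low counts, the 8 do not stand for the list. Dsp, Pkp2 and Jup, 3 of the 5 that were higher, encode desmosome proteins, and they were put together after their values were seen. The plakophilin gene Pkp3, also on the list, did not pass the filter. Of the 2 that were lower, Tjp1 had the most counts of the 8. It fell from a mean of 8981 in Stem to 6598 in TGF-β (log2 fold change -0.44, SE 0.038, edgeR adjusted p = 4.35e-07). Dsp, which encodes desmoplakin, had 10.5, 9.78 and 8.66 in Stem, with 873, 823.5 and 967.5 in TGF-β and 511.4, 506.4 and 509.1 in Both. No groups of Dsp overlapped. The log2 fold change was 6.51 (SE 0.122, edgeR adjusted p = 7.6e-13) for TGF-β against Stem and -0.80 (SE 0.066, edgeR adjusted p = 3.6e-05) for Both against TGF-β. Pkp2, the gene of plakophilin-2, rose by 1.98 (SE 0.143, edgeR adjusted p = 8.4e-08) and Jup, that of plakoglobin, by 1.23 (SE 0.112, edgeR adjusted p = 7.2e-07) on the log2 scale. The keratin gene Krt19 went from a mean of 5.76 in Stem to one of 22.2 in TGF-β, and Cldn1, which encodes a tight junction claudin, had 18, 34 and 14 counts in Stem and 3, 1 and 2 in TGF-β. The filter set the direction of these too, since Krt19 had 0 Stem libraries over it and Cldn1 0 TGF-β libraries, and for Dsp it was passed by 2 of the 3 Stem libraries.

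**Figure D5:**
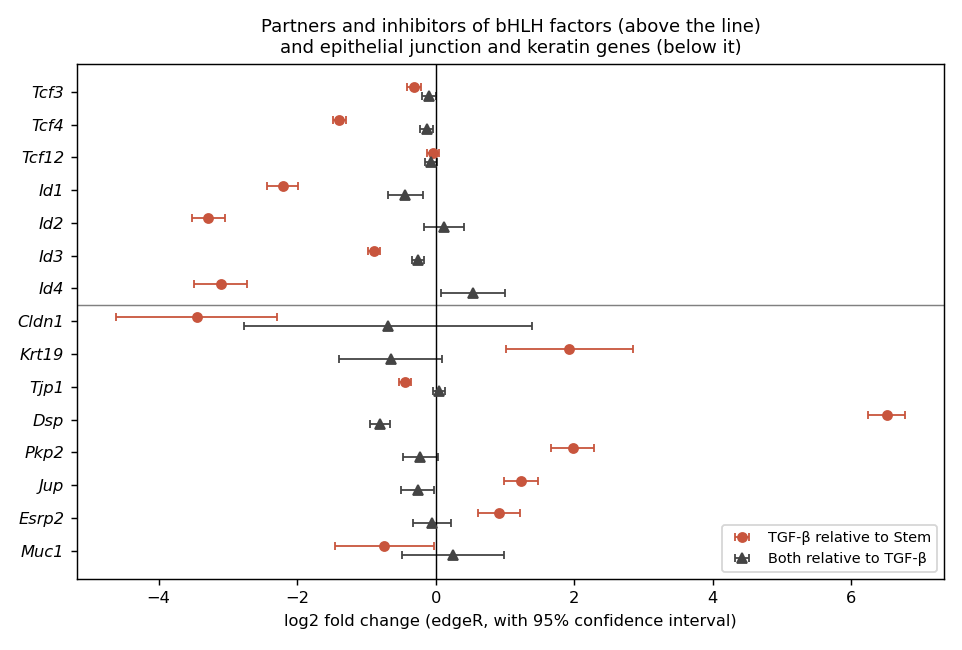
Log2 fold change (horizontal axis) from edgeR, with bars for the 95% confidence interval, of the partners and inhibitors of bHLH factors (above the line) and of the epithelial genes that passed the filter (below it), for TGF-β against Stem (circles) and Both against TGF-β (triangles). Id2, Id4, Id1 and Tcf4 lie below -1, and Dsp stands at 6.51 with TGF-β1 and at -0.80 with PFI-3.

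Of 18 mesenchymal genes often listed as downstream of these factors, 16 were tested, with 11 higher and 5 lower in TGF-β than in Stem, beside 37.3% and 37.7% of all genes tested, and a median log2 fold change of 0.71. The collagen crosslinking enzyme Loxl2 rose by 2.91 (SE 0.049, edgeR adjusted p = 3.4e-13) and the matrix protein Sparc by 2.08 (SE 0.044, edgeR adjusted p = 1.6e-12) on the log2 scale. Mmp3, a stromelysin, fell from a mean of 118159 to 5624, a log2 fold change of -4.39 (SE 0.061, edgeR adjusted p = 9.7e-14). With PFI-3, 10 of the 16 were lower and 1 higher than in TGF-β, beside 5.38% and 3.54% of all genes tested, and the median was -0.18. Loxl2 and Sparc fell by 0.40 and 0.31 on the log2 scale (edgeR adjusted p = 0.000231 and 0.000889).

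Of 29 other transcription factors of fibroblasts and mesenchyme, 22 were tested, with 8 higher and 11 lower in TGF-β than in Stem and a median of -0.17. The share higher was near the 37.3% of all genes tested, of which 37.7% were lower. Meox2, a homeobox factor, had 343.4, 293.4 and 313.7 normalized counts in Stem, with 28.1, 30.4 and 29.3 in TGF-β and 34.2, 23.7 and 28.1 in Both, a log2 fold change of -3.43 (SE 0.136, edgeR adjusted p = 3.4e-10). Osr2 fell by 3.07 (SE 0.254, edgeR adjusted p = 3.1e-07). Scx, the tendon factor scleraxis, had 8.38, 4.35 and 3.25 in Stem and 109, 134.9 and 130.8 in TGF-β. Klf8 went from 2, 2 and 0 counts to 17, 30 and 36. Scx and Klf8 had 0 Stem libraries over the filter on low counts and passed it through the groups where they were high, so the filter set their direction, although they are counted among the 8. With PFI-3, 0 of the 22 were called by edgeR, where 3.54% of all genes tested were called higher and 5.38% lower. A count of 0 of 22 is not far from these shares. Of the 22, 3 had an unadjusted edgeR p below 0.05 and DESeq2 called 1, and the median of Both against TGF-β was 0.05.

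The genes whose pattern was most like that of Snai2 over the 9 libraries, among 10869 tested genes with at least 100 mean normalized counts, were Nfkb1 and Meox2, with a Pearson r of 0.998 for each on log2 values. Because the libraries fall into 2 levels, Stem and the rest, 1850 genes had an r above 0.95, so this likeness is a description. Nfkb1, an NF-κB subunit gene, went from a mean of 2888 in Stem to 1708 in TGF-β and 1751 in Both, and Meox2 from 316.8 to 29.3 and 28.7. By Spearman's rho neither was among the 2 most alike.

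Several members overlap other annotated genes, and the strand setting of the counting is not given in the sources used here, so reads of opposite-strand neighbors cannot be told apart from theirs. The neighbors that were counted had few counts, and some were not counted. Zeb2os, opposite to Zeb2, had a mean of 50.4 normalized counts in Stem, with 48.4 in TGF-β and 35.2 in Both, against 12088, 6251 and 6464 for Zeb2. Gm10125, opposite to Zeb1, had 52.9, 18.5 and 22, and Gm29100, opposite to Twist2, had 23.9, 16.2 and 13.7. For Tcf21, the scarcest factor, the opposite gene Gm10824 had 0.711, 1.99 and 2.46. On the same strand, Gm37644, which overlaps Prrx1, had the most, with 110.3, 33.3 and 48.5, against 14663, 9488 and 10255 for Prrx1. Gm29101, on the strand of Twist2, had 18.9, 4.90 and 2.35. How many reads of the members the overlaps affected was not tested.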

How the data were processed

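RNA-Seq was measured in 9 libraries. Ribo-depleted, stranded libraries were sequenced on a NovaSeq instrument. The file deposited by the authors holds raw counts of reads for each Ensembl gene, with a column for each library and no scaling. The study's methods name Flexbar trimming and STAR alignment to GRCm39, whereas the submitters' processing notes name HISAT2 2.2.1, SAMtools 1.13 and HTSeq 0.11.3. The strand setting of the counting is not given in the sources used here.

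The members and the gene lists were chosen with earlier results of these data known. The analysis ran in R 4.3.3, using edgeR 4.0.16 (filterByExpr, TMM, quasi-likelihood test, group as the only term, prior count 0.125) and Benjamini-Hochberg adjustment over 14879 genes. DESeq2 1.42.0 was an alternative. The thresholds, an adjusted p of 0.05 and a log2 fold change of 1, follow the study's methods, which name DESeq2. Levels were brought to a common library of 41184338 counts, the mean after TMM, and are called normalized counts. Depth was 35686291 to 47741128 counts per library, and the biological coefficient of variation was 6.13%. A level given for 3 counts covers counting error only. Symbols were matched to Ensembl identifiers by a reference table. Exon lengths and overlapping genes came from GENCODE M21, of another build than the counts, and promoter windows from RefSeq on GRCm38.p6. Pair ratios were compared by exact permutation (scipy 1.17.1).

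Named genes are the 9 members, up to 4 genes of each list past the fold threshold by size, and the 2 genes most like a member that passed the fold threshold with a mean of at least 100 normalized counts. Some list genes beyond this rule, among them Jup, Tjp1, Pkp3, Lats2, Id3 and Tcf12, were named after their values were seen. The steps were tested on simulated counts for Stem versus TGF-β over 14513 genes, where edgeR recovered 99 of 100 genes changed by 1 and 100 of 100 changed by 2 on the log2 scale, with 15 false calls at an adjusted p below 0.05 and 0 past the fold threshold. The simulation gave all genes the same dispersion and changed few genes, none with the lowest counts. In the data 11158 genes were called between Stem and TGF-β, so these rates describe the simulation and do not carry over to the data. Alternatives were DESeq2, other scalings, other filters, the 6 libraries compared, a replicate block, another prior count and leaving out each library. Other assays of the study were not analysed here. Some genes of the lists are counted in the totals and not reported here by name.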

Additional observations from a re-analysis of the deposited data

How the results depend on the processing

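Between Stem and TGF-β, the 8 factors other than Snai1 were called lower in each of the 17 alternatives, and the number past the fold threshold was 2 in all of them except with total counts, where Zeb2 made it 3. Between Stem and Both the count of 7 ranged from 7 to 9 as Snai1 and Prrx2 passed or did not. Between TGF-β and Both the number with an adjusted p below 0.05 was 0, but 2 (Zeb1 and Prrx1) in the fit of the 6 libraries compared, and 0 to 1 when each library was left out. The sign of 3 small differences between TGF-β and Both changed, none of them called. For Twist1, at 0.0022, it was -0.00083 with DESeq2, -0.00018 with DESeq2 size factors and -0.0021 with the replicate block, and -0.090 to 0.077 over the fits without 1 library. Over those fits Snai2 ranged from -0.016 to 0.14 and Tcf21 from -0.18 to 0.14. The cause of these changes was not tested. The titles carry a letter, A, B or C, that repeats across the groups with the replicate number, and its meaning is not given. No label ties a replicate number to a shared culture or day, and the numbers were not taken as pairs. Same-numbered libraries correlated in their deviations from the group means by -0.046 to 0.439, above 0.1 in 5 of 9 pairs, with replicate 2 at 0.376 to 0.439. Replicate 2 correlated with other numbers by -0.415 to -0.0925, and not every library correlated best with its own number. With the replicate number as a block, the members called for Stem versus TGF-β, TGF-β versus Both and Stem versus Both numbered 9, 0 and 9, where they were 9, 0 and 7 without it, since Snai1 (edgeR adjusted p = 0.0471) and Prrx2 (0.0238) passed between Stem and Both, and over all genes tested 2309 in place of 1327 did between TGF-β and Both. Depth bears most on Tcf21, the scarcest factor, whose change with PFI-3 had an interval of -0.49 to 0.46.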
